A study of Canis lupus familiaris with 32 samples.

Results

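The genes described here were higher in the hip joint capsule of dogs under 1 month of age than in that of adult control dogs, and were also higher than the controls in the capsule of dogs with hip dysplasia. They were chosen on measured values. A gene entered when its mean in young capsule was at least 5 CPM (fragments per 1000000 fragments of the library) and at least 2 times the mean in control capsule, and when its mean in affected capsule was also at least 2 times that in control capsule. Its mean in embryonic hip had to be less than 2 times that in young capsule, its mean in young capsule less than 3 times that in embryonic hip, and the average of its 7 group means below 1000 CPM. Of 24580 genes in the table, 64 met this rule, and these are called the members. The rule also leaves out 4 gene IDs by name, and these are not among the 64.

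RNA was sequenced from 32 tissue samples of 25 dogs, a species in which hip dysplasia arises naturally. Affected capsules came from 4 dogs, of which 1 was adult (replicate 1) and 3 were 4 months old (replicates 2 to 4), and control capsules came from 5 adults. Young dogs under 1 month of age gave 6 capsules and 4 ligaments. Affected ligaments came from 7 dogs, 4 adults (replicates 1 to 4) and 3 aged 4 months (replicates 5 to 7), and control ligaments came from 3 adults. A further 3 libraries came from embryonic hip, which holds more tissues than the capsule. The labels used here give no breed, genotype or severity. Since 3 of the 4 affected capsules came from dogs of 4 months and all controls were adult, age and disease cannot be told apart in the capsule beyond the single adult affected library.

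The capsule is the fibrous sleeve that closes the hip joint and is lined by synovium, and the teres ligament is the cord inside the joint that ties the femoral head to the socket. In hip dysplasia the femoral head sits loosely in a shallow socket, and the soft tissues around it can be stretched and thickened. Fetal and newborn fibrous tissue is built by dividing fibroblasts that secrete collagen and other matrix proteins in quantity, a program that is largely shut down in mature tendon, ligament and capsule and can be switched on again during repair. The files list genes by Ensembl ID without symbols, so which of the members belong to such programs was not analysed here, and marker genes of capsule, ligament, cartilage, muscle or blood could not be examined. At most 2 IDs are named per comparison.

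Library totals ran from 2857235 to 9895143 fragments. In affected capsules 24.7% to 30.4% of fragments fell on the 10 leading genes, and in control capsules 18.7% to 25.3%. The part of this difference in the results was not tested. With library-sum scaling, the median of all genes lay 0.17 to 0.37 below the control mean on the log2 scale in young ligaments and 0.08 to 0.40 below it in young capsules. In affected capsules it stood at -0.24 to -0.08 at 4 months and at -0.14 in the adult. The medians per library in ligament are set beside that of all genes. The ratios of CPM means in capsule are not adjusted for it. Among the dogs, 7 gave both tissues. These include the 3 affected dogs of 4 months, so their ligaments are not independent of the capsules that chose the members. Young capsules 1, 2 and 6 and young ligaments 1, 2 and 4 also came from the same dogs, as did control capsule 3 and control ligament 1.

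The members were carried at a middle level in affected capsule. Their median over genes was 27.2 CPM in young capsule (range of gene means 5.05 to 687), 11.4 CPM in affected capsule (0.745 to 267) and 3.05 CPM in control capsule (0.29 to 82.2). CPM is not divided by gene length, so these ranges do not rank the genes by abundance. The ratio of affected to control mean had a median of 2.9 and ran from 2.02 to 43.1, and the ratio of young to control mean had a median of 7.77 and ran from 2.02 to 618. Affected capsule kept a median of 0.376 of the young level. In 23 of 64 members it kept at least 50% of that level, and in 7 the affected mean equalled or passed the young mean. These values chose the members and carry no test. In bulk tissue, fewer cells of a type and less RNA per cell cannot be told apart.

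**Figure D1:**
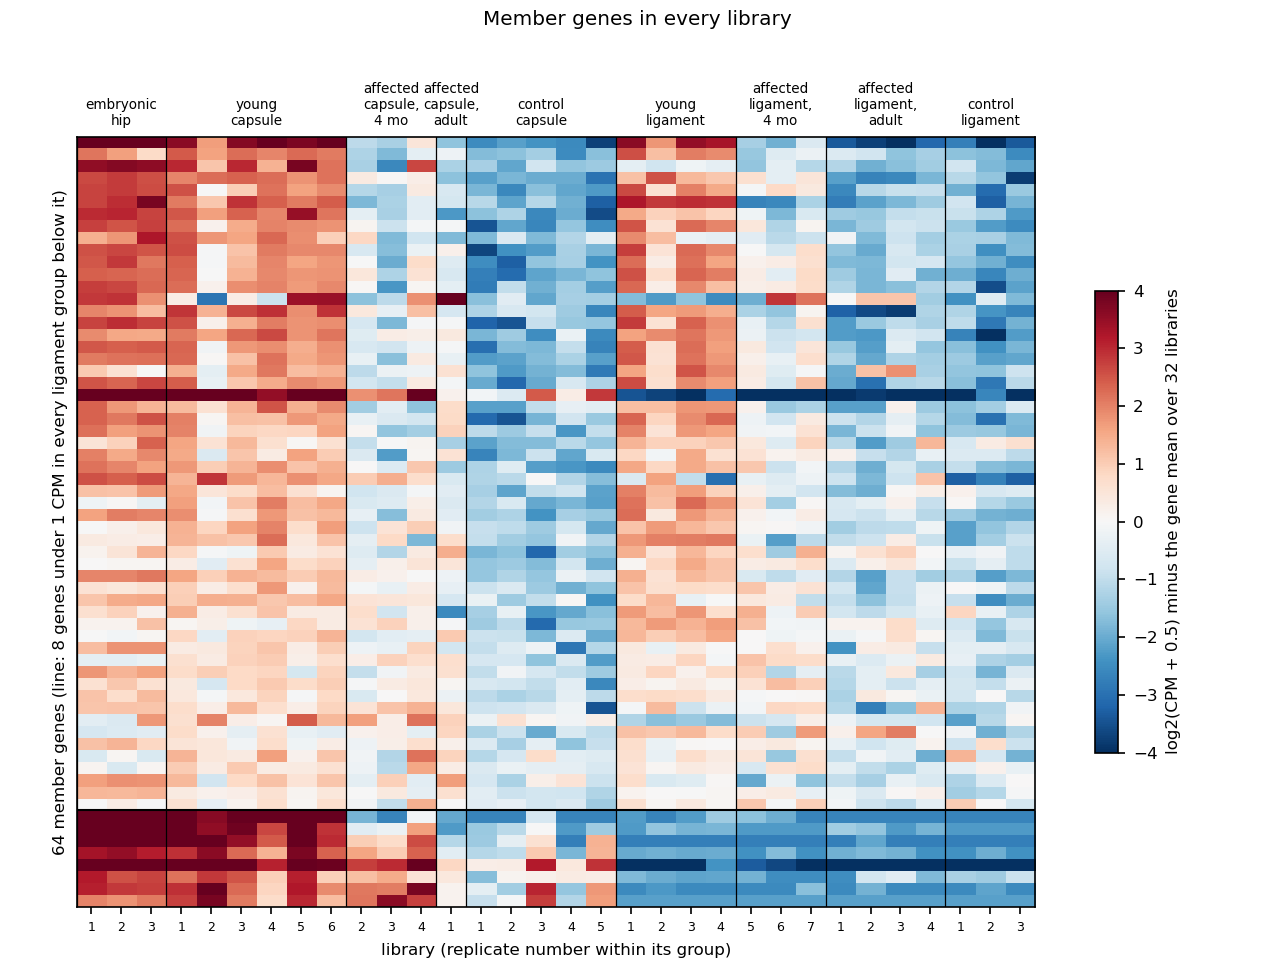
Each row is 1 of the 64 members and each column 1 of the 32 libraries, grouped by tissue, age and disease. Colour gives log2(CPM + 0.5) minus the mean of that gene over all libraries (red higher, blue lower), and the rows under the horizontal line are the 8 members that stayed under 1 CPM in every ligament group. Embryonic hip and young libraries are red for most rows, affected capsules are near white, and control libraries are blue.

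The separation of single libraries was less complete than the means. All 6 young capsules lay above all 5 controls for 55 of 64 members, where 4.59% of the 15363 genes tested did so. All 4 affected capsules lay above all 5 controls for 20 members, where 0.794% of genes did so. The rule fixes both directions, so nothing is read from these shares. All 6 young capsules also lay above all 4 affected capsules for 16 members, so for the other members the ranges of the young and affected groups overlapped.

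The 4 affected capsules contributed unequally. Affected capsule 4, from a dog of 4 months, held the highest value among the affected for 35 of 64 members, affected capsule 1 (the adult) for 16, affected capsule 2 for 7 and affected capsule 3 for 6. In 19 members more than 50% of the summed affected CPM came from 1 library, and in 7 more than 70%. Affected capsule 4 lay above all 5 controls for 58 members, affected capsule 1 for 46, affected capsule 2 for 41 and affected capsule 3 for 34, while 12.2% to 21.8% of all genes tested did so in these libraries. Without affected capsule 4 the rule returned 50 genes, 45 of them among the 64, and without control capsule 3 it returned 95, with 60 among the 64. With library sizes scaled by TMM (trimmed mean of M values) it returned 130, with 60 of the 64 among them.

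The adult affected capsule is the only one whose age class matches the controls. It lay above the control mean for 53 of 64 members and at 2 times that mean or more for 37, with a median ratio over members of 2.36 (range 0 to 158). The mean of the 3 capsules at 4 months reached 2 times the control mean for 56 members, with a median ratio of 2.97 (0.966 to 9.99). Both age classes reached 2 times the control mean in 29 members, only the dogs of 4 months in 27 and only the adult in 8. One adult library gives no spread, so the age classes are set side by side without a test.

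**Figure D2:**
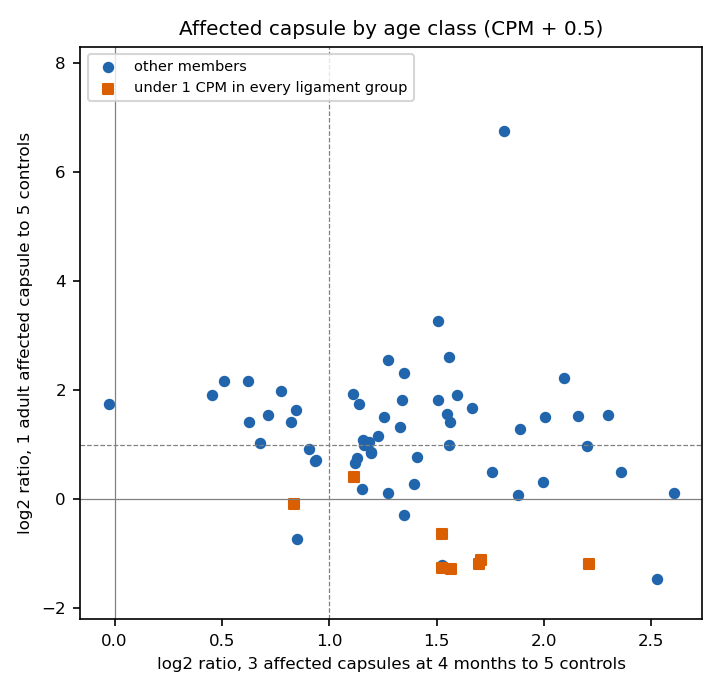
Each point is a member. The horizontal axis gives the log2 ratio of the mean of 3 affected capsules at 4 months to the mean of 5 control capsules, and the vertical axis the same ratio for the 1 adult affected capsule, both with 0.5 CPM added to each mean. Dashed lines mark a ratio of 2. Squares are the 8 members under 1 CPM in every ligament group, which lie to the right of 0 on the horizontal axis and, in 7 of 8, at or below 0 on the vertical axis.

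The 2 members with the highest mean CPM in affected capsule were ENSCAFG00000016543 and ENSCAFG00000013875. ENSCAFG00000016543 stood at 21.6 CPM in affected capsule 1, 69.2 in affected capsule 2, 86.1 in affected capsule 3 and 891 in affected capsule 4. In control capsules 1 to 5 it stood at 17.5, 12.8, 107, 23.8 and 140 CPM. Young capsules ran from 224 to 1385 CPM with a median of 640. Only affected capsule 4 reached the young range, and control capsules 3 and 5 were above affected capsules 1, 2 and 3, so the group ranges overlapped although the mean was 267 ± 417 (SD, n = 4) against 60.2 ± 59.1 (n = 5).

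ENSCAFG00000013875 also had its highest affected value in capsule 4. Its values in affected capsules 1 to 4 were 30.2, 119, 136 and 717 CPM, and those in control capsules 1 to 5 were 20.3, 20.7, 156, 23.0 and 128 CPM. Young capsules ran from 147 to 960 CPM with a median of 421. Affected capsule 4 was again the only affected library within the young range, and control capsules 3 and 5 again overlapped the affected group. In ligament both genes were close to absent. The group means of ENSCAFG00000016543 were 1.11 ± 0.633 CPM in young (n = 4), 0.338 ± 0.366 in affected (n = 7) and 1.12 ± 1.43 in control ligament (n = 3), and those of ENSCAFG00000013875 were 0.950 ± 1.27, 0.457 ± 0.462 and 0.182 ± 0.315 CPM.

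ENSCAFG00000013875 was 1 of 8 members with a mean under 1 CPM in every ligament group. ENSCAFG00000016543 fell just outside this limit, which was set after the values had been seen. Among the young-high genes that met the rest of the rule without reaching 2 times the control level in affected capsule, 33 of 304 stayed under the same limit. These 304 are the nearest comparison and are called the comparison genes. Their affected to control ratio had a median of 1.19 and reached 1.97, so they are genes under the limit of 2 and not genes at the control level.

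The values of the 8 members under 1 CPM in every ligament group were uneven across capsule libraries. Against the control mean, their median ratio was 0.421 in affected capsule 1, 1.94 in affected capsule 2, 1.92 in affected capsule 3 and 5.96 in affected capsule 4. Within the controls it was 2.57 in control capsule 3 and 1.33 in control capsule 5 but 0.234, 0.329 and 0.0836 in control capsules 1, 2 and 4. The adult affected library was at or below the control mean in 7 of the 8, and all 4 affected capsules lay above all controls in 1. Their highest library was affected capsule 4 for 6 of them and affected capsule 3 for the other 2. ENSCAFG00000016543, counted with the other 56, had a like pattern, so the limit of 1 CPM does not divide the members cleanly. The difference between the 8 and the 56 was not tested.

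For the other 56 members the control capsules lay close together, with median ratios to the control mean of 0.954, 1.04, 0.956, 1.21 and 0.792 in replicates 1 to 5. The affected capsules stood at 2.66, 2.31, 1.92 and 3.93 in replicates 1 to 4, each above the highest of those controls. The rule required a raised affected mean, so nothing is read from this difference. The adult affected library was at 2 times the control mean or more in 37 of the 56. Of the 20 members whose affected and control capsules did not overlap, 19 belonged to these 56, which are most of the 64 members. Over all 15363 genes tested, 0.794% had all affected capsules above all controls. Nothing is read from these counts.

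ENSCAFG00000014353 was carried in affected capsule by 1 dog. It stood at 170 CPM in the adult affected capsule and at 0.719, 1.35 and 13 CPM in affected capsules 2, 3 and 4. Control capsules lay between 0.415 and 2.27 CPM. Its young capsules ran from 0 to 41.6 CPM with a median of 4.20, so the mean of 15.3 CPM that admitted it rested on replicates 5 and 6, at 40.1 and 41.6 CPM. Affected capsules 1 and 4 stood above the control range, and affected capsules 2 and 3 lay within it.

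The members were already expressed before birth, which the rule required within limits. The median over members was 36.1 CPM in embryonic hip (3.06 to 969), and the embryo mean was above the young capsule mean in 44 and below it in 20, with a median ratio of 1.4. ENSCAFG00000001450 is given as 1 example, with larger contrasts than most members. Its young to control ratio was 85.4 and its affected to young ratio 0.0486, beside medians of 7.77 and 0.376 over the members. It stood at 1077, 979 and 852 CPM in the 3 embryonic hips and between 145 and 1002 CPM in young capsules (median 595). Affected capsules 1 to 4 stood at 14.4, 21.4, 18 and 63.1 CPM and control capsules 1 to 5 at 7.35, 9.51, 8.09, 7.33 and 2.94 CPM. All 4 affected capsules were above all 5 controls, and all were below the lowest young capsule, which held for 16 of the 64 members.

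By the median, gene models of the members were a little longer than those of all genes tested. The ratio of the scaled fragment signal to FPKM (fragments scaled by gene length and library size), which is proportional to length, had a median of 1.13 in the members, 0.71 in the comparison genes and 0.936 over the 13955 genes tested for which it could be computed. Its lower quartile was 0.462 in the members and 0.493 over those 13955 genes, and the difference in length was not tested. The 8 members under 1 CPM in every ligament group had a median of 0.446 and the other 56 one of 1.23. A ratio between groups within 1 gene does not depend on its length.

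Values just inside and just outside the limits were close. The lowest affected to control ratio among the members was 2.025 and the highest among genes failing that limit alone was 1.974. The lowest young mean was 5.053 CPM inside and the highest outside was 4.293 CPM, and the lowest young to control ratio was 2.025 inside and 1.924 outside.

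The teres ligament was not used to choose the members, apart from the upper limit on the average, and so it was tested. This test is not fully independent of the capsule. Young ligaments 1, 2 and 4, control ligament 1 and the 3 affected ligaments of 4 months came from dogs whose capsules chose the members. The first comparison asked whether genes of this capsule pattern are also higher in young than in adult control ligament. They were, for most members. With edgeR's quasi-likelihood test on the 4 young and 3 control ligaments, 40 members rose and 0 fell at a Benjamini-Hochberg adjusted p under 0.05, of the 52 that passed the filter on low counts. Over all 12701 genes tested, 5.57% were higher and 4.74% lower. A gene can pass the filter through the group where it is high, so the share of passing members is not used here.

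With all groups in 1 fit, every member was tested. Of the 64, 44 were higher in young ligament (6.82% of 15363 genes were) and 0 were lower (6.41% were). Their median log2 fold change was 2.69, beside 0 over all genes, and 58 of 64 were positive. With genes at 0 fragments in 1 group set to a bound of 3 fragments over the group, and 3 members at or under that floor in both groups left out, the median was 2.62. All 4 young ligaments lay above all 3 controls for 44 members, and 7.11% of genes did so. They lay below all controls for 1 member and 18.6% of genes. On TMM-scaled values they lay above for 48 members, and 13.1% of genes did so. Leaving out the dogs that also gave a capsule library left young ligament 3 against control ligaments 2 and 3. That fit held the other groups too and assumes that the lone library varies like them, so only effect sizes are given. The log2 fold changes of ENSCAFG00000001450 and ENSCAFG00000002441 were 8.12 and 5.97 there, beside 7.1 and 5.49 in the fit of all groups.

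Of the 304 comparison genes, 105 were higher in young ligament and 0 lower in the fit of all groups, with a median log2 fold change of 0.83. The members had been more strongly young-high in capsule to begin with, their median young to control ratio being 7.77 against 2.45. Within a band of 2 to 4 times the control capsule, 8 of 18 members and 86 of 261 other genes were higher in young ligament, with median log2 fold changes of 1.00 and 0.75. Within 4 to 8 times the counts were 12 of 15 and 16 of 34 (medians 2.30 and 1.60), and at 8 times or more they were 24 of 31 and 3 of 9 (4.16 and 2.04). The difference between the lists was not tested.

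**Figure D3:**
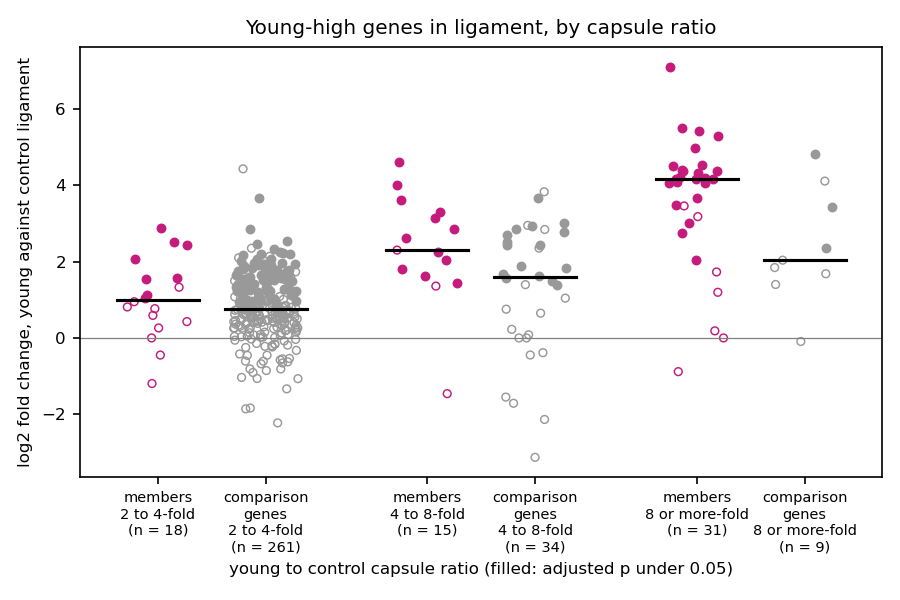
Log2 fold change between young and control ligament (vertical axis, from the edgeR fit of all groups) for the 64 members and the 304 comparison genes, split by the young to control ratio in capsule. Filled points have an adjusted p under 0.05, bars are medians, and points are spread sideways to be seen. The medians of the members rise from 1.00 to 2.30 and 4.16 over the 3 bands.

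The largest changes among the members were those of ENSCAFG00000001450 and ENSCAFG00000002441. ENSCAFG00000001450 stood at 555, 154, 522 and 445 CPM in young ligaments 1 to 4 and at 6.29, 0.546 and 3.91 CPM in control ligaments 1 to 3. The groups did not overlap, and its log2 fold change was 7.10 (SE 0.78, edgeR adjusted p = 0.0016). ENSCAFG00000002441 stood at 16.7, 6.06, 11.3 and 9.97 CPM in young and at 0.419, 0.364 and 0 CPM in control ligaments. The groups were again apart, with a log2 fold change of 5.50 (SE 0.61, edgeR adjusted p = 0.0015) that rests on 4 fragments in the control group.

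In capsule ENSCAFG00000002441 showed the same contrast between young and control dogs at a lower affected level. Young capsules ran from 8.12 to 15.3 CPM (median 12.3), control capsules from 0 to 0.622 CPM, and affected capsules 1 to 4 stood at 1.98, 0.719, 0.337 and 1.66 CPM. Affected capsule 3 lay within the control range, and the affected group held 21 fragments in all. The excess of this gene over the controls in affected capsule was small in absolute terms.

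**Figure D4:**
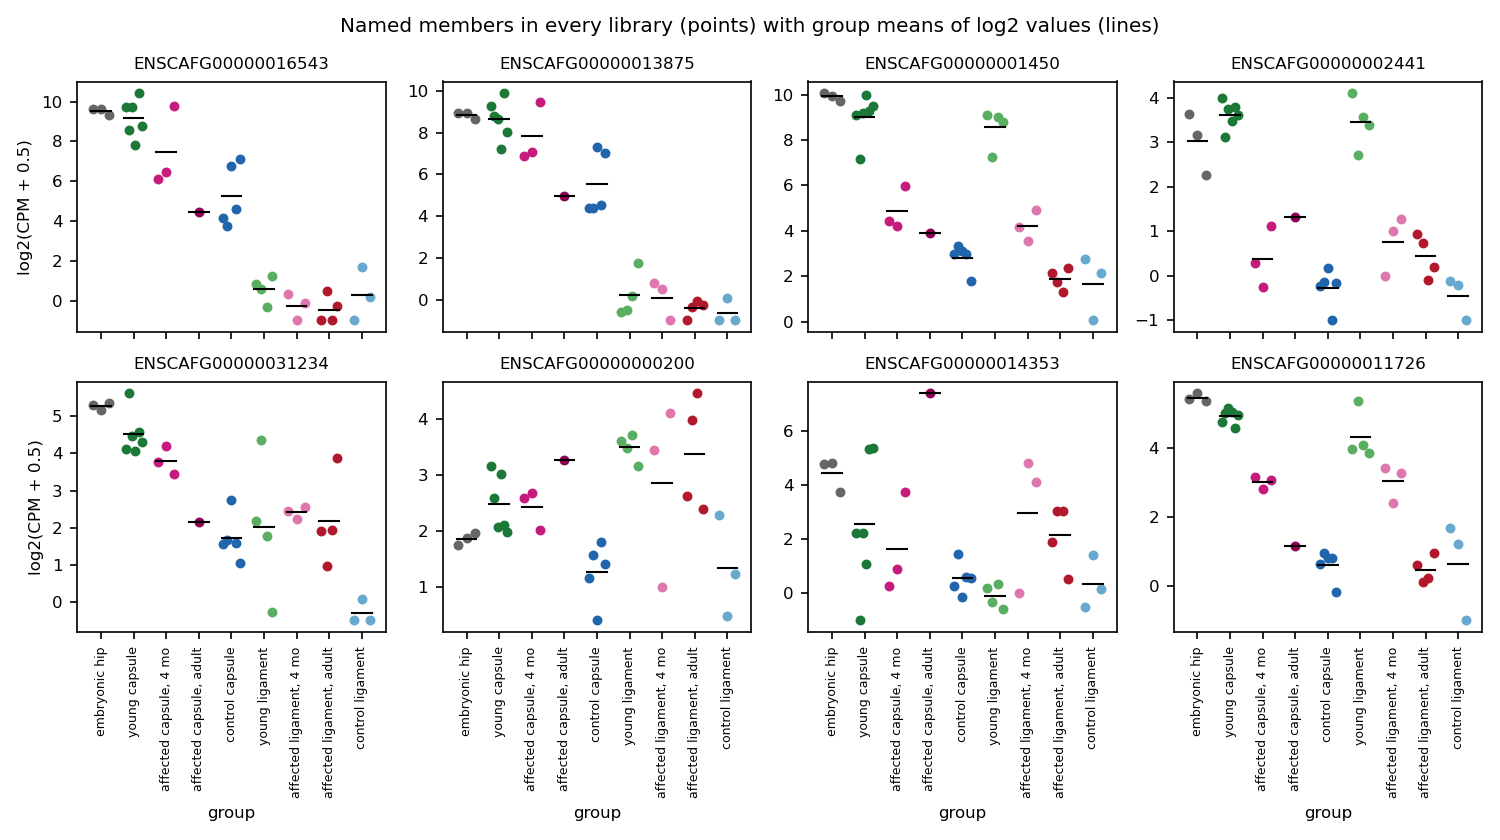
The 8 named members in every library, as log2(CPM + 0.5) on the vertical axis of each panel, by group on the horizontal axis. Points are libraries and lines are means of the log2 values, and the vertical axes differ between panels. ENSCAFG00000016543 and ENSCAFG00000013875 are high in capsule and near 0 CPM in ligament, ENSCAFG00000001450 and ENSCAFG00000002441 are high in young libraries of both tissues, and ENSCAFG00000014353 has a single high affected capsule at 170 CPM.

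Affected against control ligament asked whether the members are also higher in the ligament of dysplastic hips. In adult dogs, where the age class matches, no member passed the test. Of the 44 members tested with edgeR on 4 affected and 3 control ligaments, 0 were higher and 0 lower at an adjusted p under 0.05, and over all 12505 genes 0% were higher and 0% lower. At an unadjusted edgeR p under 0.05, 17 of the 64 members were higher and 0 lower. Of the 12505 genes tested, 1216 were higher and 1158 lower. A gene can pass the filter through the group where it is high, so the share of the 44 is not used. DESeq2 called 3 members higher, among 63 genes. Without control ligament 3, edgeR called 4 members higher and 1850 genes in all, so that 1 library moved the count of genes from 0 to that number.

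The values of the members leaned upward in adult affected ligament without passing the test. In the fit of all groups 0 members were higher and 0 lower (0% and 0.00651% of all genes). Their median log2 fold change there was 0.63, with 49 of 64 above 0, beside medians of -0.01 over all genes and -0.02 over the comparison genes. With genes at 0 fragments in 1 group at their bound and 5 members at or under the floor in both groups left out, the members' median was 0.62. All 4 adult affected ligaments lay above all 3 controls for 9 members, where 2.82% of genes did so. They lay below all controls for 1 member and 12.1% of genes. On TMM-scaled values they lay above for 10 members, where 5.58% of genes did so.

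ENSCAFG00000031234 and ENSCAFG00000000200 had the highest log2 fold changes of the members in this comparison. ENSCAFG00000031234 stood at 3.27, 1.45, 3.32 and 14.3 CPM in adult affected ligaments 1 to 4 and at 0.210, 0.546 and 0.206 CPM in control ligaments 1 to 3. The groups did not overlap, but the controls held 5 fragments in all and the log2 fold change of 4.22 (SE 0.91) had an edgeR adjusted p of 0.25. It was tested in 10 settings, the main one included, with an adjusted p between 0.012 (DESeq2) and 0.61 (edgeR without control ligament 1). With edgeR it was 0.044 without control ligament 3. No value of this gene was obtained without affected ligament 1, 3 or 4, with limma or with the replicate block. ENSCAFG00000000200 stood at 5.73, 15.4, 21.7 and 4.81 CPM in affected and at 4.40, 0.910 and 1.85 CPM in control ligaments. Its log2 fold change was 2.57 (SE 0.73, edgeR adjusted p = 0.25). Across its 15 settings the adjusted p lay between 0.046 (DESeq2) and 0.61 (edgeR without control ligament 1). Its lowest affected ligament was close to its highest control.

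Taking all 7 affected ligaments against the 3 controls added the dogs of 4 months to the affected side only. Of 48 members tested, 0 were higher and 0 lower, as were 0% of 12937 genes in either direction. At an unadjusted edgeR p under 0.05, 23 of the 64 members were higher and 0 lower. Of the 12937 genes tested, 589 were higher and 469 lower. The share of the 48 that passed the filter is again not used. DESeq2 called 3 members among 11 genes. In the fit of all groups 0 members were higher and 0 lower (0.00651% and 0.0195% of all genes). The median log2 fold change of the 64 members there was 1.07, with 54 above 0, beside 0.03 over all genes and 0.20 over the comparison genes. The same value of 1.07 was obtained with genes at 0 fragments at their bound and 4 members left out. Affected ligaments were all above the controls for 7 members, where 0.881% of genes were. They were all below for 0 members and 1.21% of genes. On TMM-scaled values they were all above for 8 members, where 1.04% of genes were.

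The leading members here were ENSCAFG00000031234, with a log2 fold change of 4.01 (SE 0.80, edgeR adjusted p = 0.60), and ENSCAFG00000014353, with 3.14 (SE 1.10, edgeR adjusted p = 0.60). ENSCAFG00000014353 stood at 0.498 to 27.6 CPM in the 7 affected ligaments with a median of 7.76, and at 0.210, 2.18 and 0.617 CPM in the controls. Its high values were in affected ligaments 6 and 7, at 27.6 and 16.7 CPM, and the ranges of the groups overlapped. In young ligament it stood at 0.642, 0.303, 0.765 and 0.166 CPM, all below the highest control ligament.

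Within affected ligaments, dogs of 4 months were compared with adults. Of 48 members tested with edgeR, 10 were higher at 4 months and 0 lower, where 6.24% of 12619 genes were higher and 8.35% lower. In the fit of all groups 7 of 64 members were higher, 10.9% of them, beside 5.47% of all genes and 31 of 304, or 10.2%, of the comparison genes. None of the members was lower, where 6.72% of all genes were. The members' share of higher calls was thus close to that of the comparison genes. Their median log2 fold change was 0.44, beside 0.03 over all genes and 0.30 over the comparison genes. All ligaments of 4 months lay above all adult ones for 15 members and below them for 0, where 26.5% and 7.26% of genes did so, and lay above them for 10 members on TMM-scaled values, where 15.8% of genes did so.

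These calls depended on single libraries. Without affected ligament 7 the count of members was 2, without affected ligament 1, 2 or 5 it was 5, and limma on log2(FPKM + 1) called 3. The count over all genes fell in the same fits, from 1841 to 845 without affected ligament 7 and to 1296, 803 and 1230 without affected ligaments 1, 2 and 5.

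ENSCAFG00000011726 and ENSCAFG00000001450 led the comparison by age. ENSCAFG00000011726 stood at 10.2, 4.79 and 9.19 CPM in the ligaments of 4 months and at 1.02, 0.581, 0.665 and 1.44 CPM in the adult affected ones. The groups were apart, with a log2 fold change of 2.77 (SE 0.47, edgeR adjusted p = 0.0091). Young ligaments 1 to 4 stood at 15.1, 40.3, 16.4 and 14 CPM, all above the ligaments of 4 months, and control ligaments at 2.72, 1.82 and 0 CPM. The capsules of the same gene gave 1.73 CPM in the affected adult and 8.44, 6.57 and 7.83 CPM in the affected dogs of 4 months, against 0.392 to 1.45 CPM in controls and 23.3 to 35.0 CPM (median 31.1) in the young.

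ENSCAFG00000001450 stood at 17.4, 11.4 and 29.9 CPM in the ligaments of 4 months and at 3.89, 2.91, 1.99 and 4.65 CPM in the adult affected ones. Its log2 fold change was 2.25 (SE 0.39, edgeR adjusted p = 0.0094). The adult affected ligaments lay within the range of the controls, and the ligaments of 4 months lay above all controls and below every young ligament. For both genes, levels in affected dogs of 4 months fell between those of young dogs and adults in both tissues.

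Per library, the members were summarised by the median of the 56 with a mean of at least 1 CPM in some ligament group. Relative to the mean of the 3 controls, their median log2 ratio was 2.14 to 2.42 in the 4 young ligaments, 1.28, 0.82 and 1.29 in affected ligaments 5, 6 and 7 of 4 months, and 0.17, 0.11, 0.69 and 0.41 in the adult affected ligaments 1 to 4. Each control was instead set against the mean of the other 2 controls. The controls stood at 0.37, -0.46 and -0.31 on that reference, which differs from that of the other libraries. By these values 2 of the 4 adult affected ligaments lay within the spread of the controls, and the ligaments of 4 months lay above it. The medians of all genes lay between -0.37 and 0.20 in these libraries. With TMM scaling the ranges were 2.41 to 2.70 in young, 0.58 to 1.26 at 4 months, 0.20 to 0.94 in adult affected and -0.55 to 0.39 in control ligaments. On that scale the ranges at 4 months and in adult affected ligaments overlapped, affected ligament 6 standing at 0.58 and affected ligament 3 at 0.94. Relative to the median of all genes they overlapped as well, at 0.62 to 1.31 and 0.27 to 1.01. No p is given for a median over members.

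In capsule, where the rule itself required a raised affected mean, the same 56 members are given as a description. Their median log2 ratio to the control mean was 1.82 to 2.91 in young capsules, 1.09, 0.81 and 1.74 in the affected capsules of 4 months and 1.31 in the adult affected capsule. The controls, each set against the mean of the other 4 controls, stood at -0.34 to 0.30. The adult affected capsule lay within the range of the younger affected ones and above all controls, as it did with TMM scaling, at 1.40 against 1.04 to 1.76 and -0.27 to 0.33. These libraries chose the members, the adult value rests on 1 dog, and nothing about age or disease is read from it.

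**Figure D5:**
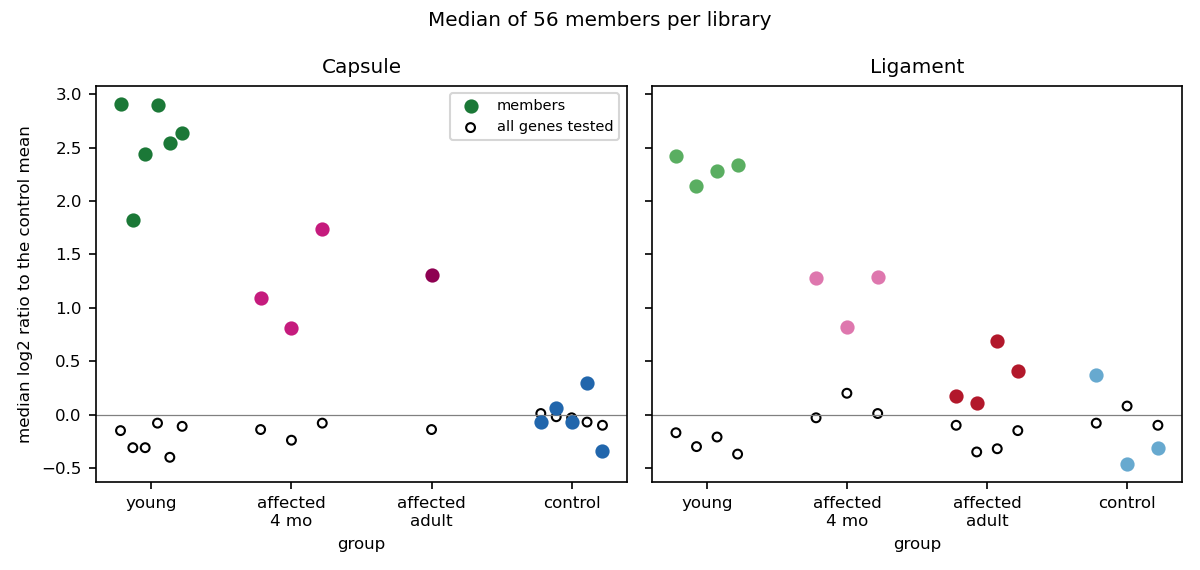
Median log2 ratio to the mean of the tissue's controls, with 0.5 CPM added, for the 56 members with a mean of at least 1 CPM in some ligament group (filled points) and for all genes tested (open points). Each point is 1 library, by group on the horizontal axis, with capsule on the left and ligament on the right. A control library is set against the mean of the other controls of its tissue. The adult affected capsule stands at 1.31 and the adult affected ligaments stand between 0.11 and 0.69. The capsule libraries chose the members and the ligaments did not, apart from the upper limit on the average, so the tissues are not compared.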

How the data were processed

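The members, the comparison genes and the tests were chosen with earlier results of these data known. Total RNA was extracted with Trizol, depleted of ribosomal RNA and made into directional libraries, per the labels' protocols. The genome build was canFam3 and the tools were Cuffdiff 2.2.1, TopHat2 2.0.13, Bowtie2 2.2 and cutadapt 1.8, per the submitters' processing notes. Not given in the sources used here are the annotation release, the strand setting and the treatment of shared fragments, so overlapping or near-identical genes remain uncertain.

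The authors deposited an estimated count of fragments per gene and library, per the file headers. These were whole except for 0.332% of values (tolerance 1e-06) and were rounded for testing. The deposited scaled fragment signal and FPKM gave the relative length, and FPKM an alternative test. The status FAIL was carried by 9 values in 3 genes, which were kept. Of the 24580 Ensembl IDs, 0 matched the reference table of symbols (assembly UU_Cfam_GSD_1.0), so the gene lists prepared could not be examined and no sequence is printed.

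CPM used the library sum. Ligament groups were tested with edgeR 4.0.16 in R 4.3.3 (filterByExpr, TMM, robust quasi-likelihood F test, Benjamini-Hochberg over all genes tested, threshold 0.05), checked on simulated counts. Log2 fold changes in the text are from the fit of the groups compared unless the fit of all groups is named. The alternatives were DESeq2 1.42.0, RLE scaling, no filter, all groups in 1 fit, limma 3.58.1 on log2(FPKM + 1), a block on the replicate number, dogs without a capsule library and leaving out each library. Capsule and embryo contrasts carry no test, as the rule used them. The named members are the 2 with the highest affected capsule mean and, per ligament comparison, the 2 called members with the highest log2 fold change and at least 5 CPM in the higher group, or the 2 highest where none was called. No member was called lower. ENSCAFG00000014353 and ENSCAFG00000001450 are described in capsule although named for ligament.

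The labels' dog identifiers differ between replicates of a group. Over 64 pairs of replicates the chi-square per gene was 4.44 or more, so no library was counted as a duplicate of another.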

Additional observations from a re-analysis of the deposited data

Results flagged for a closer look

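Among the 8 named members, 54 sets of 4 to 10 values were examined for a library standing apart, and 10 had one (Dixon's criterion, which chance meets in about 1 of 20). Affected capsule 4 stood apart in 3 genes, with 891 CPM of ENSCAFG00000016543 (the other affected capsules 21.6 to 86.1), 717 CPM of ENSCAFG00000013875 (30.2 to 136) and 63.1 CPM of ENSCAFG00000001450 (14.4 to 21.4). The adult affected capsule stood apart with 170 CPM of ENSCAFG00000014353 (0.719 to 13). ENSCAFG00000031234 stood apart with 6.22 CPM in control capsule 3 (1.57 to 2.69), 49.1 CPM in young capsule 2 (16.4 to 23.6) and 14.3 CPM in affected ligament 4 (1.45 to 5.34 in the other affected ligaments and 1.45 to 3.32 in the other adult ones). Young ligament 4 held 2.82 CPM of ENSCAFG00000013875 (0.160 to 0.612 in the others), and young ligament 2 held 40.3 CPM of ENSCAFG00000011726 (14 to 16.4).

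Young capsule 2 and young ligament 2 came from 1 dog. ENSCAFG00000031234 was highest in both of its tissues among the young (49.1 CPM in capsule and 20.2 CPM in ligament), and ENSCAFG00000001450 was lowest in both (145 and 154 CPM).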

How the results depend on the processing

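For young against control ligament, members called higher stayed between 35 and 45 of 64 under every alternative that kept more than 1 library in each group, with 0 lower. All genes called were 1310 in the main analysis, 2000 with DESeq2, 2032 with all groups in 1 fit, 814 with a replicate block, 603 without dogs that gave a capsule library, and 617 to 1774 on leaving out 1 library. For adult affected against control ligament, genes called were 0 in the main analysis, 63 with DESeq2 (3 members), 1 with all groups in 1 fit, 204 with a replicate block (2 members), and 0 to 1850 on leaving out 1 library (0 to 4 members, the highest without control ligament 3). For all affected ligaments they were 0, 11 with DESeq2 (3 members), 4 with all groups in 1 fit, 204 with a replicate block (2 members, the same libraries as in the adult comparison), and 0 to 1 on leaving out 1 library. At 4 months against adult, genes called were 1841 in the main analysis and 549 to 2203 on leaving out 1 library, and members called were 10, 3 with limma, and 2 to 12. The number of genes meeting the rule was 64, 130 with TMM scaling (60 of the 64 among them), 119 with group medians (46 of the 64), and 50 to 95 on leaving out 1 library. The adult affected capsule alone gave 57 genes, 37 of them among the 64. The cause of these changes was not tested. No log2 fold change of a named member reversed. ENSCAFG00000014353 ran from 0.99 to 4.30 over its alternatives, with an adjusted p from 0.033 (replicate block, log2 fold change 3.08) to 1, and ENSCAFG00000002441 from 2.12 to 5.97, the lowest value of each being that of limma on log2(FPKM + 1), a scale that understates low genes.

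By the labels, libraries of the same replicate number in the groups compared came from different dogs, so the numbers do not pair them. Their deviations from the group means correlated at 0.239, 0.0622 and -0.188 (young and control replicates 1 to 3) and 0.0739, -0.022 and 0.302 (adult affected and control). Libraries of unlike number were not correlated, so nothing is read from these values. No replicate block was run at 4 months against adult, where the groups share no replicate numbers and no dogs.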
